A study of Mus musculus with 6 samples.

Results

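A set of 10 genes that help decide whether a damaged cell dies or survives was followed in the mouse parotid, a salivary gland, after irradiation. Members were found by matching the Ensembl gene IDs of the deposited count tables to 10 named symbols in the GENCODE annotation of the build mm10, and all 10 of the 52636 listed genes were found. They are the pore-forming proteins Bax and Bak1, the BH3-only proteins Bbc3 and Pmaip1, the death receptors Fas and Tnfrsf10b, the nuclease Aen, and the survival proteins Bcl2, Bcl2l1 and Mcl1. Total RNA was sequenced from glands of the inbred mouse strain FVB at an age of 28 days. Group sizes were 3 untreated samples and 3 samples labelled treated, called irradiated here, for which the labels give 1 radiation dose of 5 Gy. The labels give neither the time from irradiation to collection nor the number of mice behind each sample, so each p-value reflects sample-to-sample spread that may be technical.

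Radiation damage activates p53, a transcription factor that can arrest the cell cycle or start cell death. Bbc3 (PUMA) and Pmaip1 (NOXA) are BH3-only proteins, a class whose members each bind and block some or all of the survival proteins. Among these survival proteins are BCL-2, BCL-XL (encoded by Bcl2l1) and MCL-1. BAX and BAK, once free of that restraint, form pores in the outer mitochondrial membrane, and the released cytochrome c starts the caspase cascade. FAS and the TRAIL receptor encoded by Tnfrsf10b start a second route from the cell surface, and AEN is a nuclear exonuclease induced by p53. Acinar cells, the secretory cells of the parotid, make up most of the gland.

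Acinar markers were abundant in all 6 libraries, and summed lymphocyte markers were higher in the irradiated libraries and varied among the untreated ones. Gene counts ranged from 7108359 to 15036193 per library. Summed acinar markers stood at 376114 to 455400 CPM (read counts relative to library size, scaled by TMM, the trimmed mean of M-values) in untreated and 349513 to 440801 CPM in irradiated libraries. T and natural killer cell markers (2 of 12 called higher, Cd5 and Cd8b1, and 10 not called) summed to 18.3, 2.18 and 17.8 CPM in untreated replicates 1, 2 and 3 and to 39.3 to 53.7 CPM in irradiated libraries. B and plasma cell markers (1 of 7 tested called higher, Bank1) summed to 23.0, 1.48 and 8.99 CPM and to 32.0 to 33.0 CPM. Single markers pointed the other way without passing, Nkg7 of natural killer cells at a log2 fold change of -0.66 and Jchain of plasma cells at -1.38. In 9 lists of other cell types, from acinar cells to red blood cells, 0 genes were called. Untreated replicate 2 held no counts of Cd3g, Cd8a, Cd79a or Cd79b, which define T and B cells. Irradiated replicate 2 was the shallowest library, with 10% of its reads unaligned against 3.75% to 4.33% elsewhere, and 184 reads set aside for low alignment quality against 342749 to 491591. Fewer cells of a type and less RNA per cell cannot be told apart in these bulk samples, and the part of the lymphocyte markers in the results below was not tested.

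Setting irradiated against untreated glands addresses how the tissue's transcripts differ after a radiation dose. Cdkn1a, the p53 target that encodes the cell cycle inhibitor p21, marks that response, with 2.14, 1.83 and 2.26 CPM in the untreated libraries and 21.7, 25.9 and 18.0 CPM in the irradiated ones. Its log2 fold change was 3.38 (95% interval 2.98 to 3.78). Of the 5 genes of the p53 response listed as references, 2 others passed, Eda2r at 2.97 and Ccng1 at 1.04, while Mdm2, the p53 inhibitor, at 0.44 and 1 further gene did not. None of the 9 tested death and survival genes changed beyond the threshold. By edgeR's quasi-likelihood test at a Benjamini-Hochberg adjusted p of 0.05, 0 were called higher and 0 lower. Over all 12885 genes tested, 1.00% were called, 0.652% higher and 0.349% lower. At an unadjusted p under 0.05 there were 4 of the 9, all higher (Bax, Tnfrsf10b, Aen and Bcl2), against 15.0% of all genes, 7.51% higher and 7.46% lower. With other tools DESeq2 called 1, Aen, and limma-voom called 0. Pmaip1, with 3 to 10 counts per library, did not pass the filter on low counts and was not tested.

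Irradiated libraries stood above every untreated library for 5 of the 9 tested genes, Bax, Bbc3, Tnfrsf10b, Aen and Bcl2, and below for 0. Such a separation upward was found for 10.6% of all genes tested, and downward for another 10.6%. The set was chosen with earlier results of these data known, so its shares set beside those of all genes are not a test. The median log2 fold change was 0.50 over the 9 genes and -0.01 over all genes. Among the 6 tested death genes the median was 0.56, and among the 3 survival genes it was -0.01. Log2 fold changes ran from -0.08 for Mcl1 to 1.33 for Tnfrsf10b. The intervals of all 9 ended below that of Cdkn1a, the reference with the largest change. Those of Tnfrsf10b (0.40 to 2.25) and Aen (0.34 to 1.67) covered the value of Ccng1. So did those of Bcl2 (0.04 to 1.11), Bbc3 (-0.23 to 1.46) and Fas (-0.92 to 1.21). The intervals of Bax, Bak1, Bcl2l1 and Mcl1 ended below that value.

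**Figure D1:**
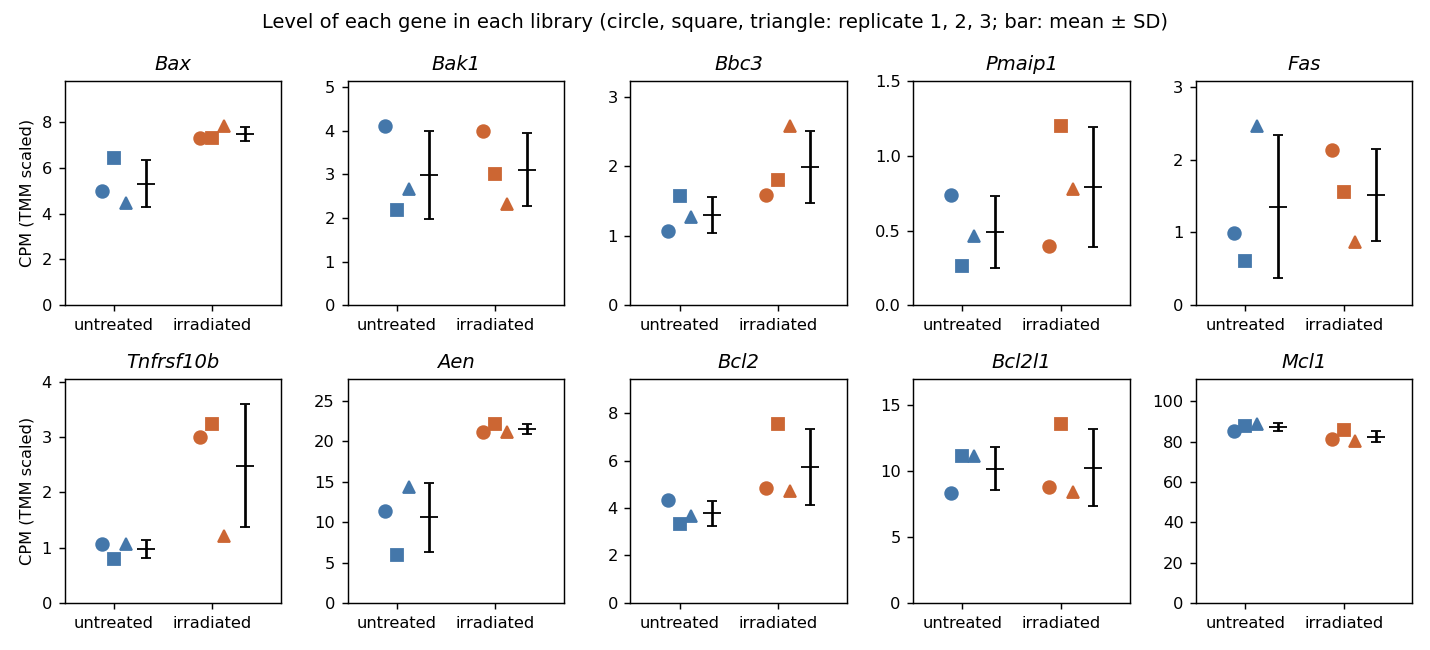
CPM scaled by TMM (linear axis from 0) of the 10 genes in each library, with circle, square and triangle for replicates 1, 2 and 3 of each group and a bar for the mean ± SD over 3 libraries. Aen lies between 21.1 and 22.2 CPM in all irradiated libraries and between 5.93 and 14.4 CPM in untreated ones, while Mcl1 lies between 80.6 and 89.0 CPM in all 6.

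**Figure D2:**
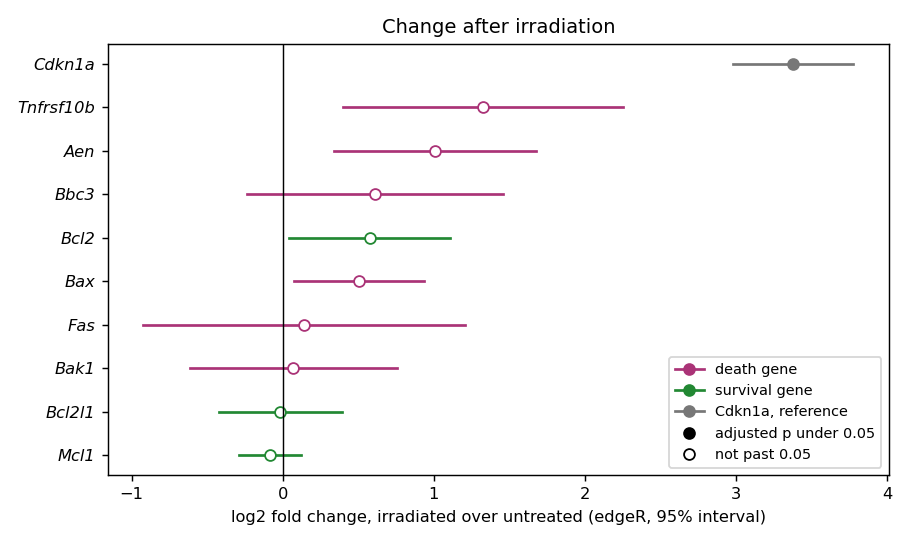
Log2 fold change of irradiated over untreated glands with its 95% interval for the 9 tested genes and for Cdkn1a, from edgeR. Only Cdkn1a, at 3.38, has a filled point for an adjusted p under 0.05; the intervals of Tnfrsf10b, Aen, Bcl2 and Bax lie above 0 before adjustment over all genes.

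Promoter windows, from 250 bases before to 50 bases after a transcription start, were given in RefSeq's table for 8 of the 10 genes (build GRCm38.p6) and were searched for the p53 response element. That element is a pair of 10-base units, called p53 half-sites, each with a core of 4 bases that starts with C, ends with G and has A or T at the positions between. The searched motif reads the same on both strands. A unit without mismatch lay in the windows of 2 of the 8 genes, Aen and Bax, and in 9.55% of 27025 genes with a window. A pair of such units within 13 bases of each other lay in 0 of the 8 and in 0.074% of all genes, and the Cdkn1a window holds such a pair, at -73 to -64 and -51 to -42 from the start. A relaxed search, chosen after the windows had been seen, asked for a 20-base site with both cores intact and at most 3 mismatches. It found Aen and Bbc3 among the 8, and 0.673% of all genes. These stretches are shown because they set the members' windows beside that of Cdkn1a, the p53 target described above, whose 20-base site has 1 mismatch against 3 in Aen and Bbc3. Capitals mark the matched site, and lower case the 5 bases on each side.
Cdkn1a, chr17:29090923-29090952, plus strand: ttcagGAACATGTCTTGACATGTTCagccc
Bbc3, chr7:16309481-16309510, plus strand: cccgaCTGCAAGCCCCGACTTGTCCccagc
Aen, chr7:78895932-78895961, plus strand: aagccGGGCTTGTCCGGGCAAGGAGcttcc
Bax, chr7:45467085-45467104, minus strand, single unit: atcccAGGCAAGCTTtgaac
The site lies at -51 to -32 from the annotated start in Cdkn1a, at -97 to -78 in Bbc3 and at 11 to 30 after the start in Aen, and the Bax unit lies at -201 to -192. These offsets count from a RefSeq transcript start; the GENCODE gene begins further upstream in Bbc3 and Aen, so that both sites lie inside the gene bounds given below. A match in letters is a description of the window and does not show that p53 binds there.

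Of the pore formers, Bax had its lowest irradiated value above its highest untreated value, without passing the test. Bax (ENSMUSG00000003873; chromosome 7, 45461697 to 45466898, mm10) had 61, 74 and 67 counts in untreated replicates 1, 2 and 3 and 110, 61 and 91 in the irradiated ones. Scaled, these were 5.01, 6.46 and 4.46 CPM against 7.31, 7.32 and 7.84 CPM. Irradiated values lay close together and the nearest untreated value was that of replicate 2. The group means were 5.31 ± 1.03 and 7.49 ± 0.303 CPM (SD, n = 3 each), a fold change of 1.42 with an interval of 1.05 to 1.91 and an edgeR adjusted p of 0.246. Of its exon bases, 12.2% are shared with the gene Gm45808 on the same strand.

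Bak1, the second pore former (ENSMUSG00000057789; chromosome 17, 27019810 to 27029009), showed no separation. Its levels were 4.11, 2.18 and 2.66 CPM untreated and 3.99, 3.00 and 2.33 CPM irradiated. The ranges lay over each other almost entirely. Its log2 fold change was 0.07, with an interval from -0.61 to 0.75 and an edgeR adjusted p of 0.949. Its sign turned when untreated replicate 2 (-0.10), untreated replicate 3 (-0.01) or irradiated replicate 1 (-0.17) was left out, and without untreated replicate 1 the value was 0.36. Reads of Bak1 are uncertain, since 25.5% of its exon bases overlap Ggnbp1 on the other strand and the strand setting of the counting was not given.

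The BH3-only genes were rare transcripts. Bbc3 (ENSMUSG00000002083; chromosome 7, 16308393 to 16318205), the initiator with the 20-base match above, had 13, 18 and 19 counts in untreated libraries and 24, 15 and 30 in irradiated ones, or 1.07, 1.57 and 1.27 against 1.60, 1.80 and 2.59 CPM. The groups did not overlap, but untreated replicate 2 and irradiated replicate 1 nearly met. Its fold change was 1.53, with an interval of 0.850 to 2.75 that spans both no change and a change of more than 2-fold, at an edgeR adjusted p of 0.516. Pmaip1 (ENSMUSG00000024521) had 9, 3 and 7 counts untreated and 6, 10 and 9 irradiated. Its levels of 0.739, 0.262 and 0.466 CPM against 0.399, 1.20 and 0.776 CPM overlapped, and Pmaip1 was not tested with the count filter. Fitted without the count filter, Pmaip1 had a log2 fold change of 0.60 and an edgeR adjusted p of 0.696.

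Of the death receptors, Tnfrsf10b had the largest fold change of the 9 tested genes, and Fas showed no separation. Tnfrsf10b (ENSMUSG00000022074; chromosome 14, 69767472 to 69784411), the mouse TRAIL receptor, had 13, 9 and 16 counts in untreated and 45, 27 and 14 in irradiated libraries. In CPM these were 1.07, 0.785 and 1.07 against 2.99, 3.24 and 1.21. Irradiated replicates 1 and 2 stood well above all untreated libraries, while irradiated replicate 3 stood just above them. The means were 0.973 ± 0.162 and 2.48 ± 1.11 CPM (SD, n = 3 each), a fold change of 2.51 (interval 1.32 to 4.76), and the edgeR adjusted p of 0.150 was the smallest of the 9. Its ligand Tnfsf10, which encodes TRAIL, had a log2 fold change of 0.15 and an edgeR adjusted p of 0.829.

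Fas (ENSMUSG00000024778; chromosome 19, 34290666 to 34327772), the receptor for FAS ligand, varied more within groups than between them. Levels were 0.986, 0.611 and 2.46 CPM untreated and 2.13, 1.56 and 0.862 CPM irradiated. Both extremes were held by untreated libraries. The log2 fold change was 0.14, with an interval from -0.92 to 1.21 and an edgeR adjusted p of 0.932. Its sign turned when untreated replicate 1 (-0.04), untreated replicate 2 (-0.19) or irradiated replicate 1 (-0.22) was left out, and leaving out untreated replicate 3 gave 0.93. Fasl, the ligand, had 0 to 2 counts per library and was not tested.

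Aen (ENSMUSG00000030609; chromosome 7, 78895854 to 78911209), the exonuclease, stood at about the same level in all irradiated libraries, above every untreated one, without passing the test. Counts were 139, 68 and 216 in untreated and 318, 185 and 245 in irradiated libraries, or 11.4, 5.93 and 14.4 CPM against 21.1, 22.2 and 21.1 CPM. The irradiated values were nearly equal, and the untreated values differed by more than 2-fold, lowest in replicate 2. Summed T and natural killer cell markers were 18.3, 2.18 and 17.8 CPM in untreated replicates 1, 2 and 3. Summed B and plasma cell markers were 23.0, 1.48 and 8.99 CPM there. Their part in the Aen levels was not tested. The Aen means were 10.6 ± 4.29 and 21.5 ± 0.627 CPM (SD, n = 3 each), a fold change of 2.01 (interval 1.26 to 3.19). Its edgeR adjusted p was 0.165 in a fit that gave it 6.78 degrees of freedom, against 19.6 for Bax. The call depended on the setting: Aen passed in 5 of 16 alternatives, with DESeq2 (adjusted p = 0.00559), without the count filter (edgeR adjusted p = 3.18e-08), with the replicate block and a length and GC correction together (edgeR adjusted p = 0.0255), without untreated replicate 2 (edgeR adjusted p = 0.0288) and without untreated replicate 3 (edgeR adjusted p = 0.0156). Over all alternatives its adjusted p ranged from 3.18e-08 to 0.439 and its log2 fold change from 0.73, without untreated replicate 2, to 1.30, without untreated replicate 3. The lowest value came without the count filter, where the Aen log2 fold change was 0.995. In that setting the calls over all genes also rose, from 84 higher and 45 lower to 279 and 239. The edgeR adjusted p of Cdkn1a fell there from 2.03e-09 to 2.07e-64.

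Of the 3 survival genes in the set, Mcl1 was the most abundant and showed no separation. Mcl1 (ENSMUSG00000038612; chromosome 3, 95658788 to 95663176), which encodes a short-lived survival protein that restrains BAK, stood at 85.1, 87.8 and 89.0 CPM untreated and 81.3, 85.7 and 80.6 CPM irradiated. The ranges overlapped. Its log2 fold change was -0.08, with an interval of -0.29 to 0.12 and an edgeR adjusted p of 0.756, and it was 0.07 when libraries were scaled by their totals alone, which also moved the median of all genes to 0.14. As a fold this interval is 0.819 to 1.09.

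Bcl2l1 (ENSMUSG00000007659; chromosome 2, 152780668 to 152831728), the BCL-XL gene, stood at 8.30, 11.1 and 11.1 CPM untreated and 8.77, 13.6 and 8.36 CPM irradiated. Irradiated replicate 2 was the highest library and the other two irradiated ones lay within the untreated range. Its fold change was 0.990, with an interval of 0.748 to 1.31 and an edgeR adjusted p of 0.984, its sign turned in 7 of 16 alternatives, and without irradiated replicate 2 its log2 fold change was -0.25.

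Bcl2 itself (ENSMUSG00000057329; chromosome 1, 106538178 to 106714274) was the survival gene with the highest fold change. Its counts were 53, 38 and 55 untreated and 73, 63 and 55 irradiated, or 4.35, 3.32 and 3.66 against 4.85, 7.56 and 4.74 CPM. All irradiated libraries were above all untreated ones, with irradiated replicate 2 far above the rest. The fold change was 1.49 (interval 1.03 to 2.16), at an edgeR adjusted p of 0.288, and the log2 fold change went from 0.58 to 0.34 without irradiated replicate 2. Irradiated replicate 2 was also the shallowest library. Summed T and natural killer cell markers were 18.3, 2.18 and 17.8 CPM in untreated replicates 1, 2 and 3. In irradiated replicates they were 39.3, 53.7 and 41.5 CPM. Summed B and plasma cell markers were 23.0, 1.48 and 8.99 CPM untreated and 32.2, 33.0 and 32.0 CPM irradiated. Their part in the Bcl2 levels was not tested. Of the Bcl2 exon bases, 6.09% overlap D630008O14Rik on the other strand.

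Levels can be compared between genes once divided by exon length. In CPM per kilobase of exon, Mcl1 led in untreated glands at 25.5 ± 0.588 (SD, n = 3), and Bax followed at 3.37 ± 0.655. Neither range met that of the next gene. Then came Bcl2l1 at 2.22, Aen at 1.82, Bak1 at 1.24, Fas at 0.656 and Bbc3 at 0.613, where each gene's range met that of its neighbour. Bcl2 at 0.412 lay below Bbc3 and above Pmaip1 at 0.179 without overlap, and Tnfrsf10b at 0.178 was level with Pmaip1. The order depends on the length used. With the longest transcript, Bcl2l1 (3.23 to 4.33) overlapped Bax (4.06 to 5.87), Bcl2 (0.461 to 0.605) overlapped Bbc3 (0.589 to 0.866), and Tnfrsf10b at 0.306 was above Pmaip1 at 0.179. In irradiated glands Mcl1 stood at 24.1 ± 0.815, Bax at 4.75 ± 0.192 and Aen, now above Bcl2l1, at 3.70 ± 0.108 CPM per kilobase. Mcl1 made up 90.2% to 91.6% of the summed per-length level of the 3 survival genes in untreated and 86.9% to 91.0% in irradiated libraries. Of the sum over all 10 genes it held 69.6% to 71.8% in untreated and 60.8% to 62.6% in irradiated libraries. Bcl2l2, a survival gene outside the set of 10, was not counted in these shares. It stood at 71.6 CPM over 4462 exon bases in untreated glands, against 87.3 CPM over 3418 for Mcl1.

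**Figure D3:**
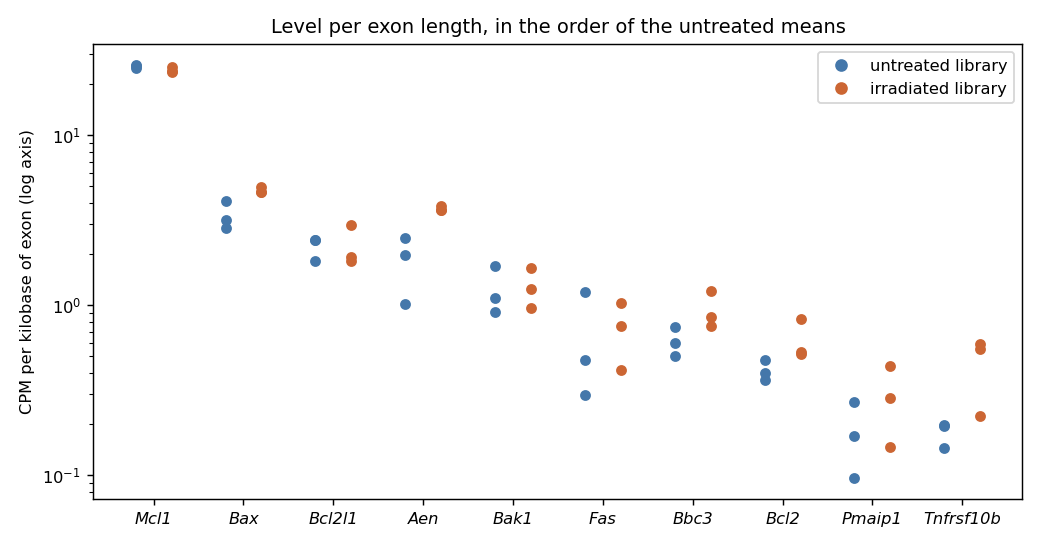
CPM per kilobase of exon (log axis) of the 10 genes in the 3 untreated and 3 irradiated libraries, in the order of the untreated means. Mcl1 lies near 25 in both groups, and Tnfrsf10b and Pmaip1 are lowest in untreated glands at 0.178 and 0.179.

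Ratios of a death gene to a survival gene inside one library do not depend on the scaling between libraries, and were taken as log2 ratios of counts per kilobase with a prior count of 0.5. Of 12 ratios, 2 were higher in every irradiated library than in any untreated one, 0 were lower and 10 overlapped. Bax over Mcl1 was -2.96, -2.64 and -3.19 untreated and -2.35, -2.42 and -2.24 irradiated, a difference of 0.59. Bbc3 over Mcl1 was -5.58, -5.08 and -5.41 untreated and -4.96, -4.84 and -4.25 irradiated, a difference of 0.67. Both have Mcl1 as the denominator, which lay between 80.6 and 89.0 CPM in all 6 libraries. Bax and Bbc3 were already apart upward as single genes, so these ratios are not separate findings. No share over ratios of other genes was taken for comparison.

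Bax over Bcl2, the classical balance of this family, was 2.74, 3.49 and 2.82 untreated and 3.13, 2.49 and 3.26 irradiated. The groups overlapped, and the means of 3.02 ± 0.412 and 2.96 ± 0.410 (SD, n = 3 each) differed by -0.06. Bax over Bcl2l1 differed by 0.52, from 0.60 ± 0.326 to 1.13 ± 0.417, and overlapped in irradiated replicate 2. Bak1 over Bcl2 had the most negative difference, at -0.49, also with overlap. These ratios are given with no test, since they are scores over the chosen genes.

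**Figure D4:**
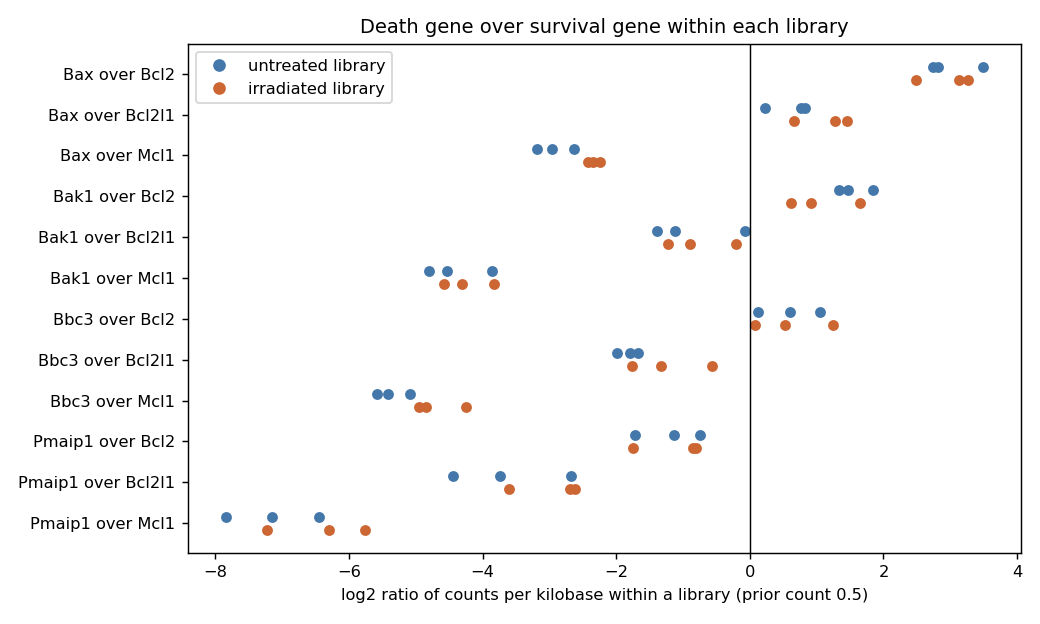
Log2 ratio of counts per kilobase (prior count 0.5) of each of 4 death genes over each of 3 survival genes, with 1 point per library. Only Bax over Mcl1 and Bbc3 over Mcl1 have all irradiated points to the right of all untreated points, and Bax over Bcl2 has means of 3.02 and 2.96.

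Beyond the 10 genes, 6 lists of 70 other cell death genes held 59 that could be tested, of which 2 rose, 0 fell and 57 did not pass, or 3.39% called, against 1.00% of all genes. Irradiated libraries stood above all untreated ones for 13 of the 59 and below for 6, where the shares over all genes were 10.6% each. The lists were chosen with earlier results of these data known, so their shares set beside those of all genes are not a test. Both rises were in the list of other p53-linked death genes, where 2 of 12 tested rose and 0 fell, with a list median of 0.18 on the log2 scale against -0.01 for all genes. Zmat3, an RNA-binding protein under p53, rose from 8.08 ± 0.423 to 20.7 ± 4.32 CPM (SD, n = 3 each), with a log2 fold change of 1.35 (edgeR adjusted p = 0.000105). Phlda3, a p53 target that restrains AKT signalling, rose from 4.42 ± 0.918 to 10.8 ± 0.818 CPM, with a log2 fold change of 1.28 (edgeR adjusted p = 0.00203). Trp53inp1, a nuclear protein that promotes p53-dependent death, was named after its values were seen. It stood at 11.3, 15.5 and 7.06 CPM untreated and 35.2, 30.0 and 27.9 CPM irradiated, with an edgeR adjusted p of 0.0756, and passed in 9 of 16 alternatives.

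No gene passed in the other 5 lists. Among the other pro-death BCL2 family genes, 10 of 13 were tested, the median was -0.12, and the smallest p belonged to Bcl2l13, a mitochondrial family member, at a log2 fold change of 0.49 (edgeR adjusted p = 0.0660). Among other survival genes, 2 of 6 were tested, Bcl2l2 and Tmbim6, which encodes BAX inhibitor 1 and lies outside the BCL2 family. Their median was -0.22, and for both the irradiated libraries lay below the untreated ones, as for 10.6% of all genes tested. Bcl2l2, which encodes BCL-W, stood at 71.6 ± 3.24 and 62.4 ± 4.24 CPM (SD, n = 3 each; edgeR adjusted p = 0.394). The caspases and apoptosome, all 15 tested, had a median of 0.16, with 3 genes apart upward and 2 downward, against 10.6% of all genes each way. Diablo, the mitochondrial antagonist of caspase inhibitors, had the smallest p there, at a log2 fold change of -0.38 (edgeR adjusted p = 0.266).

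The 7 inhibitors of apoptosis had a median of 0.44, with irradiated libraries above untreated ones for 3 of them and below for 0. The shares over all genes tested were 10.6% each way. Birc6, a giant ubiquitin ligase that blocks caspases, stood at 37.2, 35.6 and 35.0 CPM untreated and 50.7, 45.4 and 49.6 CPM irradiated. Its groups were clearly apart, and its log2 fold change of 0.44 missed the threshold at an edgeR adjusted p of 0.0519. It passed in 2 of 16 alternatives. Death receptor signalling, with 13 of 16 tested, had a median of 0.02, and Ripk3, the kinase of necroptosis, had the smallest p at a log2 fold change of 1.07 (edgeR adjusted p = 0.408), on 1 to 12 counts in untreated and 10 to 21 in irradiated libraries.

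**Figure D5:**
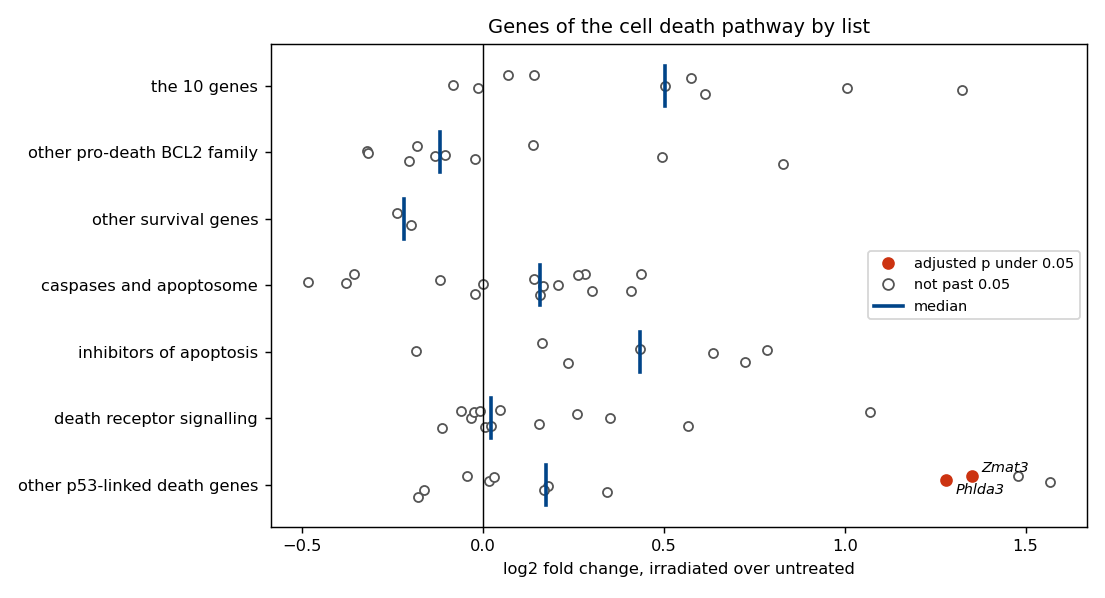
Log2 fold change, irradiated over untreated, of each tested gene in the set of 10 and in 6 lists of other cell death genes, with a bar at each list's median and filled points for an adjusted p under 0.05. The filled points are Zmat3 and Phlda3, and the medians run from -0.22 to 0.50.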

How the data were processed

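Each sample's deposited table lists unnormalised read counts for Ensembl genes. bcl2fastq, HISAT2, HTSeq and the build mm10 are named in the submitters' processing notes; no version, annotation release or strand setting is given in those notes or the labels. Rows naming no gene held 32.4% to 40.7% of reads per library and were left out. The 5 Gy protocol text stands on all 6 samples and was applied to the irradiated group.

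Counts were tested with edgeR 4.0.16 in R 4.3.3 (quasi-likelihood, robust shrinkage, TMM, filterByExpr with a minimum count of 10) over 12885 genes with Benjamini-Hochberg adjustment at 0.05; 95% intervals use a standard error from the F statistic and the fit's degrees of freedom. The procedure was tested on simulated data. DESeq2 1.42.0 and limma-voom 3.58.1 were alternatives. Lengths are the union of GENCODE M21 exons. Named genes are the 10 members, Cdkn1a, and per list those past the threshold or the one with the smallest p. Further names outside this rule are Tnfsf10, Fasl, Trp53inp1, Mdm2 and Tmbim6. The markers Nkg7, Jchain, Cd3g, Cd8a, Cd79a and Cd79b and the genes that overlap members also lie outside it. Members and lists were chosen with earlier results of these data known. No library pair was a duplicate, the lowest chi-square per degree of freedom being 12.8.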

Additional observations from a re-analysis of the deposited data

How the results depend on the processing

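Counts were low for some genes of the set: Bbc3, Pmaip1, Fas and Tnfrsf10b had between 3 and 45 counts per library. The part of low counts in the missing calls was not tested. The count of the 10 genes called higher was 1 (Aen) with DESeq2, without the count filter and with the replicate block plus the length and GC correction, 0 to 1 over the sets that leave out 1 library, and 0 in the other alternatives. Correlations of deviations from the group mean were 0.0199, -0.111 and -0.107 between same-numbered samples. Between unlike-numbered ones they ran from -0.0307 to 0.122. Such values cannot exclude that replicate numbers pair the samples, since the deviations of a group add to 0. With the replicate block alone 0 of the 10 and 39 higher and 14 lower of all genes were called, against 84 and 45. With the length and GC correction added the lower count was 29. Over all genes, library totals alone gave 259 higher and 22 lower, no count filter 279 and 239, no robust shrinkage 21 and 5, limma-voom 20 and 5, and DESeq2 70 lower; leaving out 1 library gave 31 to 83 higher and 14 to 72 lower. The other cell death genes called higher numbered 5 with library totals, 4 without the filter and 2 to 3 when 1 library was left out. The cause of these shifts was not tested. Log2 fold changes that turned sign when 1 library was left out ranged from -0.174 to 0.361 for Bak1, from -0.224 to 0.925 for Fas and from -0.247 to 0.103 for Bcl2l1. With library totals alone Mcl1 turned to 0.0724 and Bcl2l1 to 0.153; Bcl2l1 also turned with the length and GC correction (0.0121) and with that correction and the replicate block (0.0126). Per length of the longest transcript, the untreated levels were 4.83 for Bax, 3.96 for Bcl2l1, 0.53 for Bcl2 and 0.31 for Tnfrsf10b. The ratios changed by less than 1 SD with a prior count of 2.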
